A study of Mus musculus with 4 samples.

Results

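The genes described here encode the B7 and CD155 family molecules with which dendritic cells instruct T cells and natural killer (NK) cells. They were the 9 genes Cd80, Cd86, Icosl, Cd274, Pdcd1lg2, Lgals9, Havcr2, Pvr and Cd276, taken by symbol from the 23703 genes listed in either of the deposited expression tables. Of these, 8 were listed in both tables and were tested among 11757 genes. The remaining one, Cd276, was listed for a single pair of libraries. The genes were read as activating ligands (Cd80, Cd86 and Icosl), inhibitory genes (Cd274, Pdcd1lg2, Lgals9 and Havcr2) and genes with dual or mixed roles (Pvr and Cd276). Havcr2 encodes TIM-3, which is a receptor and not a ligand, and galectin-9 from Lgals9 is a secreted lectin outside the B7 and CD155 families.

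RNA was sequenced from bone marrow-derived dendritic cells of C57BL/6 mice aged 6 weeks, grown with 10 ng/ml GM-CSF and 1 ng/ml IL-4, sorted for CD11c and matured for 24 h with 100 ng/ml LPS (maDC). There were 2 Mettl3KO libraries, from mice in which CD11c-Cre deletes exons 2 to 4 of a floxed Mettl3 gene, and 2 Mettl3WT libraries from littermates whose Mettl3 is intact. Mettl3 is the catalytic subunit of the enzyme that writes N6-methyladenosine (m6A) on mRNA, and the comparison asks how its loss alters the transcripts of matured cells. The libraries were read as 2 littermate pairs by replicate number, which the labels do not tie to litters. All values are RPKM, that is, reads scaled by transcript length and by library size. By the naming of the mice the Cre transgene is carried only by Mettl3KO animals. Its own effect therefore cannot be told apart from that of the deletion. The labels do not say whether cells of several mice were pooled, while the study's methods name 2 littermate pairs of mice for RNA-seq.

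A T cell needs a signal from its antigen receptor and a further, costimulatory signal. CD80 (B7-1) and CD86 (B7-2) give that signal through CD28 and are bound more tightly by the inhibitory receptor CTLA-4, while ICOSL acts on ICOS of activated and helper T cells. PD-L1, encoded by Cd274, and PD-L2, encoded by Pdcd1lg2, engage PD-1 and restrain the T cell. Pvr encodes CD155, a nectin-like molecule that activates lymphocytes through CD226 and inhibits them through TIGIT. In dendritic cells, LPS raises CD80 and CD86 as part of maturation, and surface CD80 and CD86 are used as maturation markers.

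Since the m6A writer prefers the core GGACT (with U for T in RNA), its sites in the coding sequences are shown for the activating ligands and for the inhibitory ligands, 25 bases each from the GENCODE transcripts of mm10, sense strand, with the core in capitals.
Cd80, site at 38474037 to 38474041 of chromosome 16: tataagaaccGGACTttatatgaca
Cd80, site at 38479326 to 38479330 of chromosome 16: acgtgtcagaGGACTtcacctggga
Cd86, site at 36620999 to 36621003 of chromosome 16: tatttcaatgGGACTgcatatctgc
Cd86, site at 36620822 to 36620826 of chromosome 16: aggaacaactGGACTctacgacttc
Icosl, site at 78071946 to 78071950 of chromosome 10: atctgtccctGGACTccatgaagca
Cd274, site at 29373580 to 29373584 of chromosome 19: cggctccaaaGGACTtgtacgtggt
Cd274, site at 29373868 to 29373872 of chromosome 19: acggtggtgcGGACTacaagcgaat
Cd274, site at 29382506 to 29382510 of chromosome 19: ccacagaacaGGACTcactgggtgc
Pdcd1lg2, site at 29437504 to 29437508 of chromosome 19: gggccgcctgGGACTacaagtacct
Lgals9, site at 78976655 to 78976659 of chromosome 11: gctgcaggagGGACTtcaggtgacc
Lgals9, site at 78976633 to 78976637 of chromosome 11: accctccaggGGACTaccaagagtt
Over whole transcripts the core was densest in Icosl, with 6 matches or 2.13 per kb, followed by Cd86 with 1.97, Havcr2 with 1.84, Pdcd1lg2 with 1.82 and Cd80 with 1.76 per kb. Lower densities were found in Cd276 (1.39 per kb), Lgals9 (1.26 per kb), Cd274 (0.83 per kb) and Pvr (0.34 per kb, a single match outside the coding sequence). The median of 9734 tested protein-coding genes was 1.06 per kb, and 90.5% of them held at least 1 match. High densities occurred both in genes with a lower level in Mettl3KO (Icosl, Cd86) and in one with a higher level (Pdcd1lg2). A match is a stretch of letters and not by itself a methylated site, and methylation was not measured in these libraries. From separate experiments in maDC, the study reports an m6A peak in the CD80 coding sequence that holds the first Cd80 site shown.

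Mettl3, the deleted gene, lies on the minus strand of chromosome 14 (mm10 positions 52294841 to 52305214). In pair 1 its level was 4.59 RPKM in Mettl3KO and 5.31 RPKM in Mettl3WT. In pair 2 it was 4.39 RPKM in Mettl3KO and 5.10 RPKM in Mettl3WT. The Mettl3KO libraries were therefore at 86.5% and 86.1% of their littermates, and the limma estimate of -0.18 (SE 0.21, adjusted p = 0.994) did not pass the test. These values cover the whole gene and so check neither the labels nor the removal of exons 2 to 4. The study reports that its RNA-seq reads showed these exons removed in Mettl3KO cells. It also reports strongly reduced Mettl3 mRNA and protein in Mettl3KO maDC. Libraries of a pair resembled each other (r = 0.986 in pair 1 and 0.964 in pair 2 across genes) more than libraries of a genotype did (0.909 for Mettl3KO and 0.939 for Mettl3WT). In pair 1, Xist had 37.8 RPKM in Mettl3KO and 0.050 RPKM in Mettl3WT. The Y-linked Ddx3y had 0.024 RPKM in Mettl3KO and 29.1 RPKM in Mettl3WT, so sex and genotype cannot be told apart in that pair. None of 5 sex-linked genes examined is listed for pair 2, where only genes above 1 RPKM in both libraries are given. At the levels of pair 1, a pair of the same sex would list Xist or Ddx3y, so pair 2 may also differ in sex. The Mettl3KO library of pair 2 stood apart in S100a9, a granulocyte gene named here after its values were seen, with 2.57 RPKM against 1844 RPKM in its littermate, and in mitochondrial ribosomal RNA mt-Rnr1, with 4949 RPKM against 1853 RPKM. The limma estimates below are given with and without this library. A fit without it sets the other Mettl3KO library against both Mettl3WT libraries, so the difference between the pairs enters that estimate. Ratios and marker sums are given for each pair, so that those of pair 1 do not use this library. The division of the spread over 4 libraries needs it.

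None of the 8 genes passed the limma test at an adjusted p of 0.05 over all genes, where 0.0425% of all tested genes passed. At an unadjusted p under 0.05 stood 3 of the 8 (Cd80, Pdcd1lg2 and Pvr), beside 5.56% of all genes. In both pairs, 5 of the 8 had a lower value in Mettl3KO (Cd80, Cd86, Icosl, Havcr2 and Pvr), beside 30.8% of all genes, and 2 had a higher value (Pdcd1lg2 and Lgals9), beside 19.1% of all genes. No member reached a 1.5-fold ratio of (RPKM + 1) the same way in both pairs, which 1.21% of all genes did. That count rests on the added 1 RPKM, since in plain RPKM Pvr was 1.55-fold and 1.54-fold lower in Mettl3KO.

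**Figure D1:**
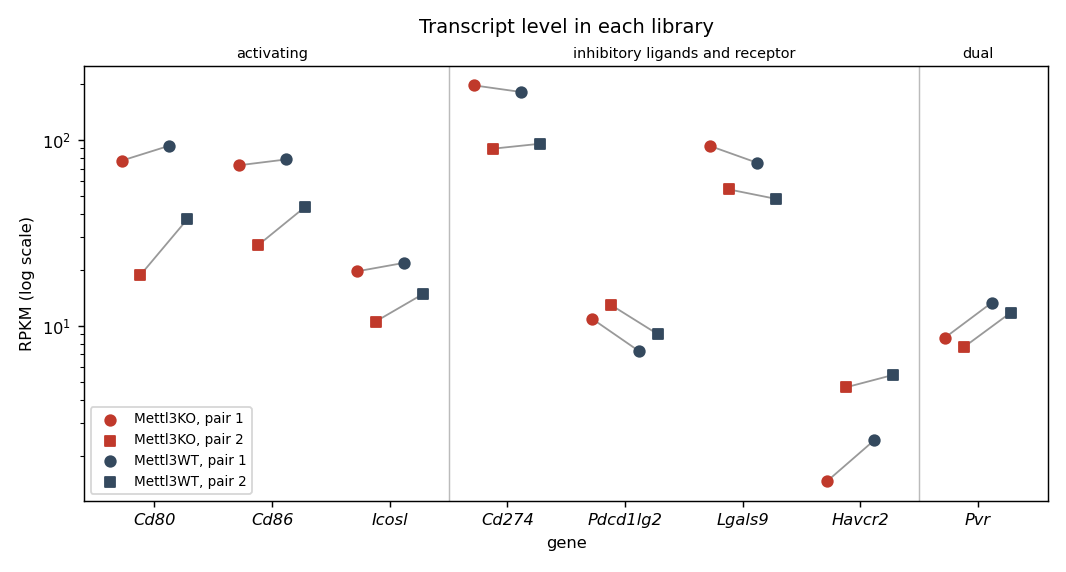
Transcript level of the 8 genes in each library, in RPKM on a log axis, with Mettl3KO (red) left of Mettl3WT (dark), circles for pair 1, squares for pair 2 and a line joining the libraries of a pair. All 3 activating ligands, the inhibitory Havcr2 and the dual Pvr slope upward from Mettl3KO to Mettl3WT in both pairs. Pdcd1lg2 and Lgals9 slope downward, and Cd274 turns between the pairs. For most genes the pairs lie farther apart than the genotypes.

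Among the activating ligands, Cd80 (chromosome 16, 38457431 to 38495958, plus strand) differed most. It had 77.1 RPKM in Mettl3KO and 92.6 RPKM in Mettl3WT of pair 1, and 18.7 RPKM in Mettl3KO and 37.4 RPKM in Mettl3WT of pair 2. Within each pair the Mettl3KO library was lower, but the groups overlapped because both libraries of pair 1 exceeded both of pair 2. The Mettl3KO level was 83.3% of the Mettl3WT level in pair 1 (95% counting interval of the ratio 0.801 to 0.867). In pair 2 it was 49.99% (interval 0.463 to 0.539), so the fold was larger there. Log2 ratios of all tested genes also spread more in pair 2, with an SD of 0.49 against 0.29 in pair 1. The limma estimate for Cd80 was -0.61 on the log2(RPKM + 1) scale (SE 0.25, 95% interval -1.17 to -0.05, adjusted p = 0.818). Fits that leave out a library cannot keep the pair, and the Cd80 estimate was then 0.38 without the Mettl3KO library of pair 2, 0.03 without the Mettl3WT library of pair 1, -1.61 without the Mettl3KO library of pair 1 and -1.25 without the Mettl3WT library of pair 2. The intervals given for ratios cover counting error only. In a separate measurement normalized to beta-actin, the study reports similar Cd80 and Cd40 mRNA in Mettl3KO and Mettl3WT maDC. It reports less of both proteins in Mettl3KO. The pseudogenes Gm8590 and Ck-ps3 and the antisense gene Gm41453 lie within the span of Cd80, at 4.37 to 16.5 RPKM, and the strandedness of the counting is not given in the sources used here.

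Cd86 lies on the same chromosome (36568956 to 36666077, minus strand), 1.79 Mb from Cd80, and encodes the other CD28 ligand. It had 72.9 RPKM in Mettl3KO and 78.3 RPKM in Mettl3WT of pair 1, and 27.1 RPKM in Mettl3KO and 43.5 RPKM in Mettl3WT of pair 2. As with Cd80, the Mettl3KO library was the lower one of each pair and the groups overlapped. The ratio of Mettl3KO to Mettl3WT was 0.931 in pair 1 and 0.623 in pair 2, and the limma estimate was -0.38 (SE 0.24, adjusted p = 0.994). That estimate was 0.31 without the Mettl3KO library of pair 2, 0.03 without the Mettl3WT library of pair 1 and -1.08 without the Mettl3KO library of pair 1. Relative to Cd86, Cd80 itself was lower in Mettl3KO: the Cd80 to Cd86 ratio was 1.06 in Mettl3KO and 1.18 in Mettl3WT of pair 1, and 0.691 in Mettl3KO and 0.861 in Mettl3WT of pair 2.

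Icosl (chromosome 10, 78069368 to 78079525, plus strand), the ICOS ligand, was the lowest of the activating genes. It had 19.6 RPKM in Mettl3KO and 21.8 RPKM in Mettl3WT of pair 1, and 10.5 RPKM in Mettl3KO and 14.8 RPKM in Mettl3WT of pair 2. Mettl3KO was again the lower library of each pair, with overlap between the groups. Its ratio was 0.900 in pair 1 and 0.713 in pair 2, the smallest departure of the activating ligands in pair 2, with a limma estimate of -0.30 (SE 0.22, adjusted p = 0.994). Without the Mettl3KO library of pair 2 the estimate was 0.12, and without that of pair 1 it was -0.72.

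The inhibitory ligands did not share that direction. Cd274 (chromosome 19, 29367438 to 29388095, plus strand) was the most abundant of the 9 genes in every library. It had 195.9 RPKM in Mettl3KO and 180.4 RPKM in Mettl3WT of pair 1, and 89.5 RPKM in Mettl3KO and 95.2 RPKM in Mettl3WT of pair 2. The Mettl3KO library was the higher one in pair 1 and the lower one in pair 2. The limma estimate for this PD-L1 transcript was 0.02 (SE 0.23, 95% interval -0.50 to 0.53, adjusted p = 0.999), an interval that leaves room for changes of about the size seen for Cd86. It was -0.55 without the Mettl3KO library of pair 1, 0.58 without that of pair 2, 0.47 without the Mettl3WT library of pair 1 and -0.44 without that of pair 2. The noncoding gene Gm36043 lies antisense within Cd274, at 6.27 to 23.9 RPKM.

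Pdcd1lg2 (29410919 to 29472927, plus strand), which encodes PD-L2, starts 22.8 kb downstream of the end of Cd274. It had 10.9 RPKM in Mettl3KO and 7.29 RPKM in Mettl3WT of pair 1, and 12.9 RPKM in Mettl3KO and 8.99 RPKM in Mettl3WT of pair 2. Both Mettl3KO libraries lay above both Mettl3WT libraries, as they did for 4.7% of all tested genes. The ratio of Mettl3KO to Mettl3WT was 1.49 in pair 1, with a counting interval of 1.32 to 1.69, and 1.44 in pair 2, with one of 1.28 to 1.62, with a limma estimate of 0.50 (SE 0.21, adjusted p = 0.870). With any 1 library left out the estimate stayed between 0.37 and 0.64. The PD-L2 to PD-L1 ratio was 0.056 in Mettl3KO and 0.040 in Mettl3WT of pair 1, and 0.144 in Mettl3KO and 0.094 in Mettl3WT of pair 2.

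Lgals9 (chromosome 11, 78962979 to 78984924, minus strand) encodes galectin-9, a secreted lectin that binds TIM-3. It had 92.7 RPKM in Mettl3KO and 75.3 RPKM in Mettl3WT of pair 1, and 54.1 RPKM in Mettl3KO and 48.1 RPKM in Mettl3WT of pair 2. Mettl3KO was the higher library of each pair, by ratios of 1.23 and 1.12, and the groups overlapped. The limma estimate was 0.23 (SE 0.22, adjusted p = 0.994), and it was 0.61 without the Mettl3KO library of pair 2, -0.15 without that of pair 1 and -0.09 without the Mettl3WT library of pair 2. Havcr2 (chromosome 11, 46454931 to 46481255, plus strand), the TIM-3 receptor, went the other way, with 1.46 RPKM in Mettl3KO and 2.42 RPKM in Mettl3WT of pair 1, and 4.66 RPKM in Mettl3KO and 5.43 RPKM in Mettl3WT of pair 2. It was the least abundant tested member, and between the Mettl3WT libraries it was 2.24-fold higher in pair 2 than in pair 1, where most members were lower. Its limma estimate was -0.33 (SE 0.21, adjusted p = 0.994), with -0.93 without the Mettl3KO library of pair 2, 0.27 without that of pair 1 and 0.12 without the Mettl3WT library of pair 2.

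Of the dual genes, Pvr (chromosome 7, 19903578 to 19921143, minus strand) showed the steadiest difference. It had 8.62 RPKM in Mettl3KO and 13.3 RPKM in Mettl3WT of pair 1, and 7.66 RPKM in Mettl3KO and 11.8 RPKM in Mettl3WT of pair 2. Both Mettl3KO libraries lay below both Mettl3WT libraries, as they did for 10.2% of all tested genes, and the ratio was 0.647 in pair 1 and 0.651 in pair 2. The limma estimate was -0.57 (SE 0.21, 95% interval -1.05 to -0.09, adjusted p = 0.763), and it stayed between -0.65 and -0.48 when any 1 library was left out. The study drew up a list of genes lowered in Mettl3KO from these same libraries, and Pvr is on it, so that list is no independent evidence. Cd276 (chromosome 9, 58524300 to 58555033, minus strand), which encodes B7-H3, was near the limit of detection, with 0.129 RPKM in Mettl3KO and 0.123 RPKM in Mettl3WT of pair 1, or about 16 reads in each. It was not analysed in pair 2, whose table lists only genes above 1 RPKM in both libraries.

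**Figure D2:**
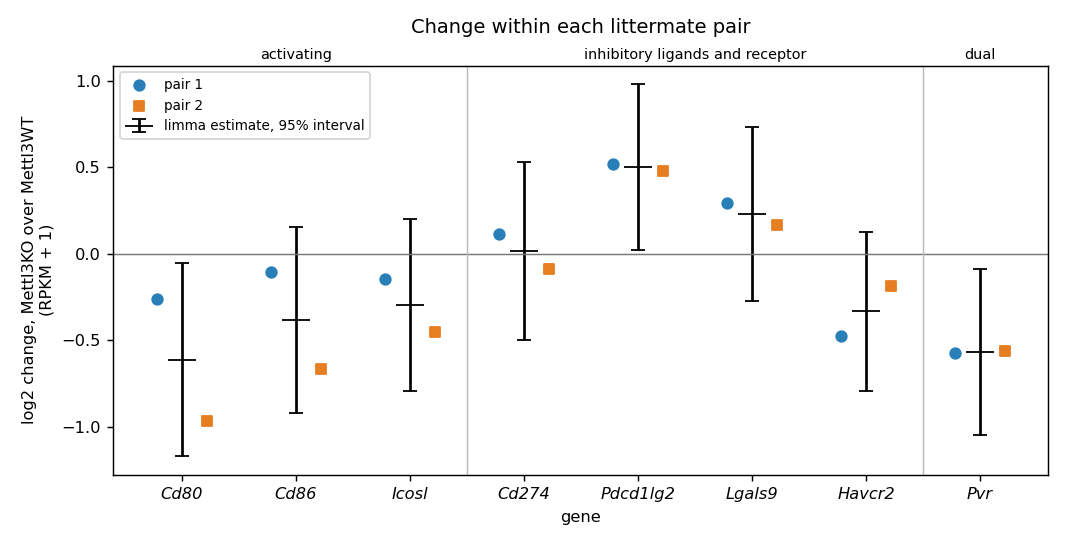
Log2 change of (RPKM + 1), Mettl3KO over Mettl3WT, for each gene in pair 1 (circle) and pair 2 (square), with the limma estimate and its 95% interval (n = 2 pairs). The pairs agree in size for Pvr and Pdcd1lg2, differ by 0.70 for Cd80, and fall on either side of 0 for Cd274; no interval is adjusted for the number of genes.

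Read as classes, the activating ligands had a median log2 change of -0.38 (3 genes, -0.61 to -0.30) and the inhibitory genes of 0.12 (4 genes, -0.33 to 0.50), beside -0.05 for all 11757 genes. The activating minus inhibitory difference of medians was -0.51, with -0.35 in pair 1 and -0.70 in pair 2. It was -0.17 without the Mettl3KO library of pair 2 and -1.14 without that of pair 1. Without the Mettl3KO library of pair 2 the activating median was 0.31 and the inhibitory median 0.48, and without the Mettl3WT library of pair 1 they were 0.03 and 0.42. No test was made of this difference, since the genes were chosen with results of these data known. A ratio of a pair of genes within a library does not depend on how libraries are scaled, and 9 of the 12 ratios of an activating over an inhibitory gene were lower in Mettl3KO in both pairs, beside 65.4% of the ratios of these activating ligands over every other tested gene. The 12 ratios reuse 7 genes and are not separate observations. The other 3 all had Havcr2 below the line, and were higher in Mettl3KO in pair 1 and lower in pair 2. In 4 of the 12 the Mettl3KO libraries lay wholly below the Mettl3WT libraries, namely Cd86 and Icosl each over Cd274 and over Lgals9, beside 7.93% of the ratios over every other tested gene. Icosl over Lgals9 was 0.211 and 0.195 in Mettl3KO, against 0.289 and 0.307 in Mettl3WT.

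**Figure D3:**
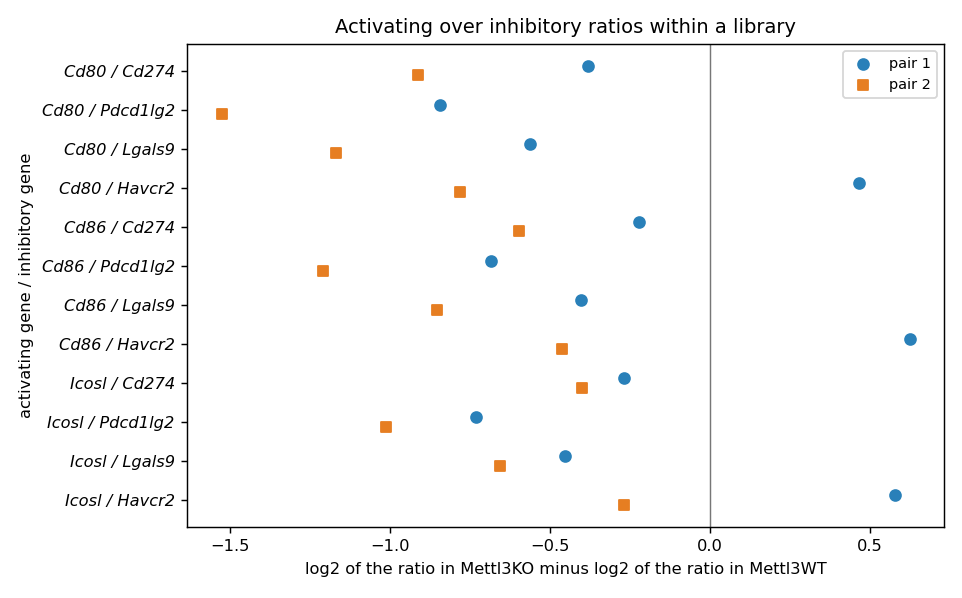
Difference in log2 ratio of each activating gene over each inhibitory gene, Mettl3KO minus Mettl3WT, in pair 1 (circle) and pair 2 (square). The 9 ratios over Cd274, Pdcd1lg2 and Lgals9 lie left of 0 in both pairs, with Cd80 over Pdcd1lg2 farthest out at -0.84 and -1.53, while the ratios over Havcr2 change side between pairs.

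The spread of each gene over the 4 libraries was divided into a share for genotype, a share for pair and a share for the difference of the pairs in the genotype contrast. For Cd274 the pair took 99.0% and genotype 0.022%. In Cd80, Cd86, Icosl, Lgals9 and Havcr2 the pair took 80.6% to 89.5% and genotype 8.75% to 15.3%, beside medians of 69.0% for pair and 10.3% for genotype over all tested genes. Genotype took 92.7% in Pvr and 80.2% in Pdcd1lg2. Between the Mettl3WT libraries, pair 1 exceeded pair 2 by 2.47-fold in Cd80, 1.90-fold in Cd274 and 1.80-fold in Cd86.

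**Figure D4:**
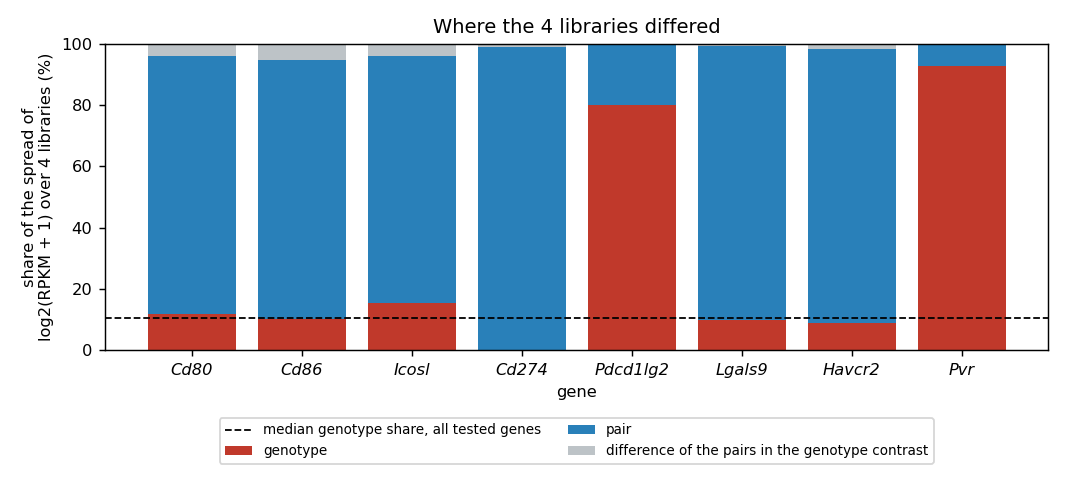
Share of the sum of squares of log2(RPKM + 1) over the 4 libraries taken by genotype (red, at the foot of each bar), by pair (blue) and by the difference of the pairs in the genotype contrast (grey), in percent. The dashed line marks the median genotype share of all tested genes, 10.3%, and only Pvr (92.7%) and Pdcd1lg2 (80.2%) stand far above it.

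By level, Cd274 came first in each library and Havcr2 last of the tested genes. Lgals9, Cd80 and Cd86 took the next places in each library, at 72.9 to 92.7 RPKM in Mettl3KO and 75.3 to 92.6 RPKM in Mettl3WT of pair 1, and their order among themselves changed between libraries. Icosl, Pdcd1lg2 and Pvr formed the next tier, and the order of Pdcd1lg2 and Pvr turned with genotype: Pdcd1lg2 was the higher of them in both Mettl3KO libraries and Pvr in both Mettl3WT libraries. The ratio of Pvr to Pdcd1lg2 was 0.791 and 0.592 in Mettl3KO, against 1.83 and 1.31 in Mettl3WT. These were the only tested members whose groups did not overlap, in opposite directions. Their ratio therefore separates by genotype of necessity and adds no further observation. RPKM is per kilobase, so levels of different genes may be set side by side on this scale.

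The genes most like a member were those at the smallest distance over the 4 libraries of centred log2(RPKM + 1), out of 11757. Nearest to Cd80 were Gm15987 (distance 0.117), Mir155hg (0.142), the host transcript of microRNA-155, and ENSMUSG00000086193.1 (0.175). Mir155hg had 61.0 and 12.9 RPKM in Mettl3KO, against 74.0 and 28.3 RPKM in Mettl3WT. Among the members, Cd86 was the 165th gene from Cd80, the inhibitory Cd274 the 756th and the activating Icosl the 1098th. Nearest to Cd274 were Mir6942 (0.030), Isoc1 (0.035) and ENSMUSG00000098302.1 (0.049). Nearest to Pvr were Pafah2 (0.030), Hmox1 (0.050), which encodes the heme-degrading enzyme heme oxygenase 1, and Gm6377 (0.085). Hmox1 had 365.1 and 324.2 RPKM in Mettl3KO, against 557.4 and 474.2 RPKM in Mettl3WT.

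Markers of cell types also differed between the libraries. Of 15 dendritic cell markers, 14 were tested, and their summed level was 6958 RPKM in Mettl3KO and 7876 RPKM in Mettl3WT of pair 1, and 6423 RPKM in Mettl3KO and 10996 RPKM in Mettl3WT of pair 2. The Mettl3KO sum was thus 88.3% and 58.4% of the Mettl3WT sum, or 91.3% and 64.6% without Cd74, the MHC class II chaperone and the most abundant of them. By gene, 8 of the 14 were lower and 0 higher in both pairs, beside 30.8% and 19.1% of all tested genes. None passed the test, and the median log2 ratio of the 14 was -0.15 in pair 1 and -0.52 in pair 2. Cd83, Cd74, Dpp4 and Ciita had the largest changes of 1 sign, and the estimate was -0.65 for Cd74 and -0.61 for Dpp4 (-0.81 and -0.25 without the Mettl3KO library of pair 2). Not all markers shared that direction: the log2 ratio in pair 2 was 1.51 for Itgax, which encodes the CD11c used for sorting, and 0.48 for Irf4. The defining markers Zbtb46 and Flt3 were present in every library, at 6.41 to 21.9 RPKM and 4.74 to 15.7 RPKM. In bulk RNA, fewer cells of a type and less RNA per cell cannot be told apart.

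Measured against the dendritic cell sum, Cd80 in Mettl3KO was at 94.3% of Mettl3WT in pair 1 and 85.6% in pair 2, Cd86 at 105.3% and 106.6%, and Icosl at 101.9% and 122.1%. Against that sum Pdcd1lg2 was at 169.2% and 246.4% and Pvr at 73.2% and 111.4%. Cd274 was at 122.9% and 161.0%, Lgals9 at 139.3% and 192.4%, and Havcr2 at 68.2% and 146.9%. A few abundant genes carry the sum, and set beside the median marker the order differed: the log2 ratio of Cd86 was -0.10 in pair 1 and -0.66 in pair 2, above the median of the markers in pair 1 and below it in pair 2. The picture also depended on the marker list. Against the monocyte and macrophage sum, Cd80 was at 69.5% and 35.4%, Cd86 at 77.6% and 44.1%, and Icosl at 75.1% and 50.6%. Against the granulocyte sum, they were at 49.6% and 77.6%, 55.4% and 96.6%, and 53.6% and 110.7%.

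The 11 tested of 12 monocyte and macrophage markers summed to 5425 RPKM in Mettl3KO and 4526 RPKM in Mettl3WT of pair 1, and 16511 RPKM in Mettl3KO and 11705 RPKM in Mettl3WT of pair 2. Lyz2, which encodes lysozyme, made up most of that sum. Without it the sum was 1082 RPKM in Mettl3KO and 1165 RPKM in Mettl3WT of pair 1, and 3782 RPKM in Mettl3KO and 2561 RPKM in Mettl3WT of pair 2, so the direction in pair 1 turned. By gene, 5 were higher and 2 lower in Mettl3KO in both pairs, beside 19.1% and 30.8% of all tested genes. The median log2 ratio was 0.00050 in pair 1 and 0.48 in pair 2. Fcgr1 and Ccr2, an Fc receptor and a chemokine receptor, had estimates of 1.10 and 0.85, and Ly6c2 and Lyz2 of 0.51 and 0.42. Without the Mettl3KO library of pair 2 these were 1.47, 0.28, -0.84 and -0.35. Within pair 1 the log2 ratios were 1.53, 0.94, 0.28 and 0.37 in that order.

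The 7 tested of 16 granulocyte markers summed to 7163 RPKM in Mettl3KO and 4263 RPKM in Mettl3WT of pair 1, but 3768 RPKM in Mettl3KO and 5846 RPKM in Mettl3WT of pair 2. Lcn2 was the only one with the same sign in both pairs, and without it the sum in Mettl3KO was 211.3% of that in Mettl3WT in pair 1 and 8.17% in pair 2. A defining marker of T cells was low in pair 1, where Cd3e had 2.04 RPKM in Mettl3KO and 1.43 RPKM in Mettl3WT. The part of these differences in marker transcripts in the values of the costimulatory genes was not tested.

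**Figure D5:**
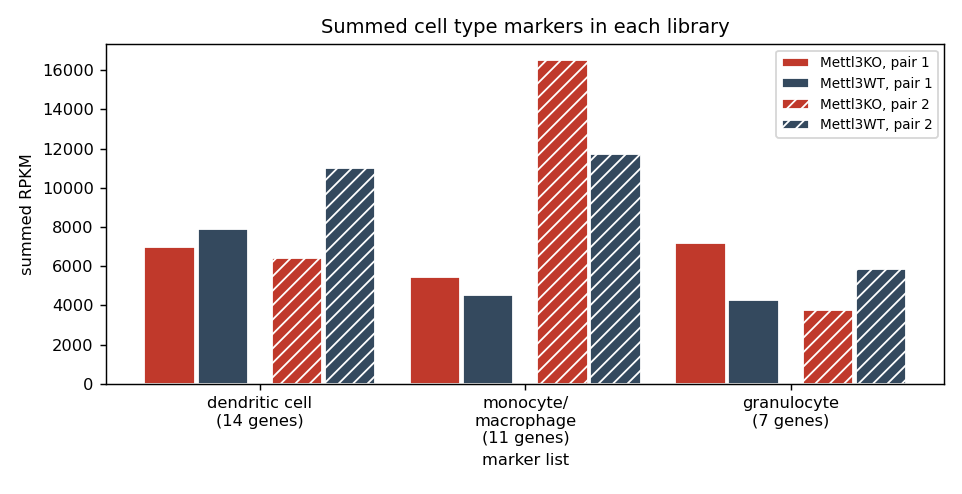
Summed RPKM of the dendritic cell, monocyte/macrophage and granulocyte markers listed in both tables, with Mettl3KO (red) left of Mettl3WT (dark), plain bars for pair 1 and hatched bars for pair 2. The dendritic cell sum is lower in Mettl3KO in both pairs (6958 against 7876 RPKM, and 6423 against 10996 RPKM), and the higher macrophage sum in Mettl3KO of pair 1 rests on Lyz2, without which it is 1082 against 1165 RPKM.

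Genes that act beside these ligands were taken from lists. For the counts of these lists, 30.8% of all tested genes were lower and 19.1% higher in Mettl3KO in both pairs. In the TNF family list, 7 of 10 genes were tested, 4 were lower and 0 higher in Mettl3KO in both pairs, and none passed the test. Cd40, the receptor through which helper T cells license dendritic cells, had 77.4 RPKM in Mettl3KO and 87.6 RPKM in Mettl3WT of pair 1, and 30.8 RPKM in Mettl3KO and 49.9 RPKM in Mettl3WT of pair 2. Its values thus ran beside those of Cd86, with a limma estimate of -0.43 (SE 0.24, adjusted p = 0.991). That estimate was 0.22 without the Mettl3KO library of pair 2, while the log2 ratio within pair 1 was -0.18. Cd70, the ligand of CD27, had 3.40 RPKM in Mettl3KO and 8.14 RPKM in Mettl3WT of pair 1, and 2.51 RPKM in Mettl3KO and 4.11 RPKM in Mettl3WT of pair 2. Its groups did not overlap, and its estimate of -0.80 (SE 0.22, adjusted p = 0.407 in limma) was larger than that of any of the 8 ligand and receptor genes. Cd70 is on the same list of the study as Pvr. Without the Mettl3KO library of pair 2 the Cd70 estimate was -0.64. Tnfsf4, the OX40 ligand, had an estimate of -0.41 (0.04 without that library) and Tnfrsf9, the receptor CD137, of -0.17 (0.19 without it). Their log2 ratios within pair 1 were -0.70 and -0.06.

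In the nectin family list, which also holds Cd200 and its receptor, 5 of 8 genes were tested, and none passed the test, with 2 of them lower in Mettl3KO in both pairs and 1 higher in both. Nectin2, like CD155 a ligand of CD226, had 11.0 RPKM in Mettl3KO and 8.17 RPKM in Mettl3WT of pair 1, and 9.24 RPKM in Mettl3KO and 8.004 RPKM in Mettl3WT of pair 2. It was higher in both Mettl3KO libraries where Pvr was lower, with an estimate of 0.29 (SE 0.22), or 0.40 without the Mettl3KO library of pair 2. Nectin1 had an estimate of -0.47 and Cd200 of -0.24, which were 0.27 and 0.60 without that library. Within pair 1 their log2 ratios were -0.25 and -0.10. Of the 6 tested genes of the TIM, galectin and TIM-3 ligand list none passed, while 1 was lower in Mettl3KO in both pairs and 1 higher in both: Lgals1, another galectin, had an estimate of -0.20 and Lgals3bp of 0.38, which were -0.45 and 0.21 without the same library. Among 13 other B7, butyrophilin and HVEM genes 10 were listed for pair 1, and the 3 tested (Vsir, Rgmb and Tnfrsf14) each differed in sign between the pairs.

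All 25 regulators on the list, which act on the transcription or the proteins of B7 ligands, were tested; 6 were lower and 3 higher in Mettl3KO in both pairs, beside 30.8% and 19.1% of all genes, and none passed the test. Cd83, whose protein keeps CD86 on the surface, had 336.3 RPKM in Mettl3KO and 390.4 RPKM in Mettl3WT of pair 1, and 131.9 RPKM in Mettl3KO and 303.4 RPKM in Mettl3WT of pair 2. Its estimate was -0.71 (SE 0.28, adjusted p = 0.7997 in limma). Ciita, the master activator of MHC class II genes, had an estimate of -0.58, Nfkb2, an NF-kB subunit, of -0.57, and Ifnar2, a type I interferon receptor chain, of 0.27. Without the Mettl3KO library of pair 2 these estimates were -0.03 for Cd83, -0.35 for Ciita, 0.08 for Nfkb2 and -0.01 for Ifnar2. Within pair 1 the log2 ratios were -0.21, -0.73, -0.08 and 0.12 in that order. Of the m6A writer genes, with Mettl3 among them, 6 of 7 were tested and none passed. In Mettl3KO, 2 were lower in both pairs (the deleted Mettl3 itself and Zc3h13) and 1 was higher in both (Wtap). Wtap had an estimate of 0.23 and Zc3h13 of -0.10, or 0.23 and 0.01 without that library. Their log2 ratios within pair 1 were 0.02 and -0.18.

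Promoters are shown for a gene of each direction, Cd80 and Lgals9, and for the neighbours Cd274 and Pdcd1lg2, whose transcripts differed in their change. They are the 250 bases before and 50 after the RefSeq start of transcription in GRCm38.p6, with matches to an NF-kB core (GGNNNTTCC) or an interferon response core (GAANNGAAA), on either strand, in capitals.
Cd80 (chr16:38458683-38458982, plus strand): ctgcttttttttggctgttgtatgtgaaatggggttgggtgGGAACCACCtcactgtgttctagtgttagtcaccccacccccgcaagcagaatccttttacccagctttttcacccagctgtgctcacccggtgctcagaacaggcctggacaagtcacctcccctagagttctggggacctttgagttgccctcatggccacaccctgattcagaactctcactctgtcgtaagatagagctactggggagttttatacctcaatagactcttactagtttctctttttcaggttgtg
Lgals9 (chr11:78984875-78985174, minus strand): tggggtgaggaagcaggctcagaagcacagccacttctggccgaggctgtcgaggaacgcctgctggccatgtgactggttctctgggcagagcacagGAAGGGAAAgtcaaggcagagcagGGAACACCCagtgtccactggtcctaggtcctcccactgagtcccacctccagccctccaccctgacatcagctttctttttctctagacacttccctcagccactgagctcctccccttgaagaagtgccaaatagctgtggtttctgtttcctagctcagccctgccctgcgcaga
Cd274 (chr19:29367188-29367487, plus strand): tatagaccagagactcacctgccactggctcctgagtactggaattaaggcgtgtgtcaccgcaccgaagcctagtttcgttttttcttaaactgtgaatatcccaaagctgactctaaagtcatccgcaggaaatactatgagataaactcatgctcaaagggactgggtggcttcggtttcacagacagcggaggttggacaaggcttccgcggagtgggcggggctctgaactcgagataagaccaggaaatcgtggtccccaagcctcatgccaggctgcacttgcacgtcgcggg
Pdcd1lg2 (chr19:29410669-29410968, plus strand): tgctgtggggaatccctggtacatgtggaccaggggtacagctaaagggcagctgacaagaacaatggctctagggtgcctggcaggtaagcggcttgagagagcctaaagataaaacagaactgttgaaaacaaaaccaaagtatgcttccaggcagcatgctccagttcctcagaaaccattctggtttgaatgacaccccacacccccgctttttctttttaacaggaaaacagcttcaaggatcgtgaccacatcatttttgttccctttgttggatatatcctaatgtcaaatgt
The Cd80 window, which lies inside the span that the files' symbol has in mm10, held 1 NF-kB core, on the minus strand from position -209. The Lgals9 window held 1 interferon response core from position -152 and 1 NF-kB core from position -128, and the windows of Cd274 and Pdcd1lg2 held neither. Among the other members with a promoter in the table, Havcr2 and Cd276 held 1 NF-kB core each and Icosl none; Cd86 and Pvr were not analysed here. An NF-kB core was present in 18.5% and an interferon response core in 7.52% of 32851 promoters of the same length. Overlapping matches were counted separately. A match describes letters only.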

How the data were processed

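RNA of 4 libraries, 2 Mettl3KO and 2 Mettl3WT, was sequenced as polyadenylated RNA. The submitters' processing notes name mm10 as genome build and bcl2fastq, TopHat2 2.0.14 and Cuffnorm as tools. Which annotation was counted, whether strand was used and how multiply matching reads were handled is not given in the sources used here. Per the file headers, the authors deposited 1 table per replicate number with an RPKM value per gene and library. The tables also hold the authors' own fold changes, p-values and q-values for each pair, which were not used. The first table lists 23690 genes, the second 11835, all above 1 RPKM in both libraries, and 11822 genes were in both. Some symbols had been converted to dates, and positions gave back 21 of 22 in the first table and 15 of 16 in the second.

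The low RPKM values are whole multiples of 1 read at library sizes of 31240000 to 35560000 reads, where 97.9% to 100% of them lay within 0.1 read of a whole number (20% by chance). Reads behind a value were estimated from that size and the transcript length, and ratios within a pair have exact (Clopper-Pearson) 95% intervals that cover counting error only.

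Values were analysed as log2(RPKM + 1), which understates changes of low genes. The 11757 genes averaging at least 1 RPKM were tested with limma 3.58.1 (R 4.3.3), with intensity trend, the pair as a block, a two-sided test of Mettl3KO against Mettl3WT, p-values adjusted by Benjamini-Hochberg over all of these genes and a threshold of 0.05. The block leaves 1 residual degree of freedom, to which limma added 8.68. The fit was tested on simulated data. The study's methods name littermate pairs, and libraries with the same replicate number were taken as a pair, which the labels do not state. Libraries with the same number deviated together from the group means (r = 0.697 across genes). That correlation cannot tell a littermate pair from a shared batch. A fold rule took genes whose (RPKM + 1) differed at least 1.5-fold in 1 direction in both pairs. Alternatives were the fit without the block, a pseudocount of 0.1, no filter, a minimum mean of 5 RPKM, pairs centred on their median ratio, no trend, each library left out, Pvr counted as inhibitory, and fold thresholds of 1.25 and 2. All members, Mettl3 and Cd40 are named, and of each other list up to 4 tested genes with the largest mean change of 1 sign in both pairs. Zbtb46, Flt3, Itgax, Irf4, Cd3e, S100a9, mt-Rnr1, the sex-linked genes, genes listed or placed near a member, T and NK cell receptors and list genes named for differing in sign were added after their values were seen. Marker sums without the most abundant marker, and fits of list genes without a library, were also added then. The members and lists were chosen with earlier results of these data known. Names of the members' promoters were matched to RefSeq by symbol, which found 7 of 9. Tables were made with pandas 2.3.3, numpy 2.4.6 and scipy 1.17.1 and figures with matplotlib 3.10.9. A marker gene and a motif are not reported here.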

Additional observations from a re-analysis of the deposited data

How the results depend on the processing

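None of the 8 tested members passed the limma test under any of the 10 alternatives. Taking out the pairing left the estimates as they were and widened their errors: with no replicate block the Cd80 estimate was again -0.61, with an SE of 0.75 in place of 0.25, and the number of all genes called was 0 in place of 5 (78 in place of 654 at an unadjusted p under 0.05). All genes called numbered 1 with a pseudocount of 0.1, 1 with centred pairs, 4 without the trend, 7 of 8124 with a mean of at least 5 RPKM and 5 with no filter. Centring the pairs shifted the members upward by 0.047 on the log2 scale and turned no direction. Havcr2 was not tested at the mean of 5 RPKM.

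With 1 library left out, the remaining fit compares across pairs, and 11 member estimates changed sign. Cd80 ran from -1.61 to 0.38, Cd86 from -1.08 to 0.31, Icosl from -0.72 to 0.12, Cd274 from -0.55 to 0.58, Lgals9 from -0.15 to 0.61 and Havcr2 from -0.93 to 0.27. Without the Mettl3WT library of pair 1, Cd80 and Cd86 were both 0.03, and without that of pair 2, Cd274 was -0.44, Lgals9 -0.09 and Havcr2 0.12. Over these fits the activating median ran from -1.08 to 0.31, the inhibitory median from 0.019 to 0.48 and their difference from -1.14 to -0.17. Each such fit sets 1 library of a genotype against both of the other, so the difference between the pairs enters the estimate. For Cd80, the log2 ratio within pair 1 was -0.26. Its Mettl3WT level in pair 1 exceeded that in pair 2 by 1.28 on the log2(RPKM + 1) scale. Pvr and Pdcd1lg2 kept their sign in all 10. The fold rule took in 2 members (Pdcd1lg2 and Pvr) at the lower fold threshold and 1 (Pvr) with a pseudocount of 0.1. Without the most abundant marker, chosen after seeing the data, the macrophage sum of pair 1 in Mettl3KO was 92.9% of Mettl3WT in place of 119.9%. With 2 pairs, the Cre transgene and the Mettl3KO library of pair 2 limit the comparison. So do the sex difference in pair 1 and a possible one in pair 2.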

Other observations

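Receptors that T and NK cells use for these molecules reached at most 7.21 RPKM, for Icos in Mettl3KO of pair 1. Of 7 (Cd28, Ctla4, Icos, Pdcd1, Tigit, Cd96 and Cd226), all were listed for pair 1 and 2 were tested, with no shared sign between the pairs. Pdcd1, which encodes PD-1, had 6.80 RPKM in Mettl3KO and 4.34 RPKM in Mettl3WT of pair 1, and Ctla4 had 3.30 RPKM in Mettl3KO and 1.61 RPKM in Mettl3WT. Both were not analysed in pair 2.

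Around Cd274 and Pdcd1lg2, 8 other genes within 250000 bases were listed in both tables. Of these, 2 were higher and 3 lower in Mettl3KO in both pairs, beside 19.1% and 30.8% of all tested genes. Jak2, the kinase gene upstream of Cd274, had 91.2 RPKM in Mettl3KO and 100.9 RPKM in Mettl3WT of pair 1, and 41.3 RPKM in Mettl3KO and 49.4 RPKM in Mettl3WT of pair 2. Plgrkt, which starts beside Cd274 on the other strand, had 26.6 RPKM in Mettl3KO and 24.3 RPKM in Mettl3WT of pair 1, and 28.8 RPKM in Mettl3KO and 27.4 RPKM in Mettl3WT of pair 2. These genes were named for their position after their values were seen.

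Of the remaining marker lists, 1 of 9 T cell, 1 of 6 NK cell, 1 of 6 mast cell or basophil and 2 of 5 plasmacytoid dendritic cell genes were tested and none of the 6 B cell genes. Without the Mettl3KO library of pair 2 the limma estimates were -0.46 for Kit (-1.24 with it) and -0.10 for Spib (-1.07 with it). For Klrk1, an NK cell receptor gene, the estimate was 0.41 (-0.29 with that library). Within pair 1 the log2 ratios of Kit, Spib and Klrk1 were -0.43, -0.24 and -0.12. Kit, the stem cell factor receptor of mast cells and progenitors, had 14.5 RPKM in Mettl3KO and 19.8 RPKM in Mettl3WT of pair 1, and 4.23 RPKM in Mettl3KO and 20.7 RPKM in Mettl3WT of pair 2. Spib, a transcription factor of plasmacytoid dendritic and B cells, had 11.6 RPKM in Mettl3KO and 13.9 RPKM in Mettl3WT of pair 1, and 2.26 RPKM in Mettl3KO and 11.2 RPKM in Mettl3WT of pair 2.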
